A study of Mus musculus with 18 samples.

Results

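The circles described here are all circular RNAs assigned by the deposited annotation to 7 genes whose proteins carry ankyrin repeats: Ankrd12, Ankrd11, Ankrd17, Ankib1, Ank2, Ank3 and Anks1b. They numbered 705 of 208914 circles listed by CIRIquant in the Illumina libraries, 419 of 166212 circles listed in the Oxford Nanopore (ONT) libraries and 720 of 204918 circles in the CIRI2 tables. The 2 platforms together gave 950 circles of these genes, of which 174 were listed on both. These genes were chosen by measured values of the same tables, above all because an abundant Ankrd12 circle read by ONT was unlisted in some Illumina libraries, so that pattern and the levels of the circles are given as a description.

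RNA came from whole brains of male C57BL/6J mice aged 3 to 4 months, with 3 biological replicates per genotype according to the series text, and both platforms were used on each genotype. The wild type carried no stated change. The group Adar2KO was Adar2-/-Gria2R/R, and the group Adar1-2KO was Adar1E861A/E861A Ifih-/-Adar2-/-Gria2R/R, so both mutant groups shared the loss of Adar2 and the Gria2R/R allele, while the inactive Adar1 (E861A) and the loss of Ifih were found only in Adar1-2KO. The effects of Adar1E861A/E861A and of Ifih-/- therefore cannot be told apart, nor can those of Adar2 loss and Gria2R/R.

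Circular RNAs form when a downstream splice donor is joined back to an upstream splice acceptor, and they often lie between long introns whose inverted repeats can pair. ADAR enzymes convert adenosine to inosine in double-stranded RNA, such paired introns included. The Gria2 R allele encodes the arginine that ADAR2 editing normally provides and keeps mice without ADAR2 alive, and Ifih1 encodes MDA5, a sensor of unedited double-stranded RNA. Ankyrin repeats are short helical units that stack into a surface for binding other proteins. Ank2 and Ank3 encode ankyrin-B and ankyrin-G, which tie membrane proteins to the spectrin skeleton, ankyrin-G being the organiser of the axon initial segment. Anks1b encodes a postsynaptic scaffold protein that binds PSD-95, Ankrd11 and Ankrd12 encode nuclear proteins that bind p160 coactivators and histone deacetylases, Ankrd17 encodes an RNA-binding KH domain protein, and Ankib1 encodes a ubiquitin ligase of the RING-between-RING class.

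A circle is identified by the junction that linear RNA of the gene does not hold, so the junction of the most abundant circle of each gene (its main circle, by Illumina reads over all libraries) is printed with 15 bases of the donor exon in lower case and 15 bases of the acceptor exon in capitals, 5′ to 3′. The bases come from GENCODE M21 transcripts (GRCm38) whose exon and intron lengths equalled those of the exon chain that ONT libraries most often listed for the circle, which was possible for 30 of the 34 circles named here.
Ankrd12 exons 2 to 8: atgaaagttatacagATCCAGGATGAGAAG
Ankrd11 exons 3 to 4: aggactcggacacagACAGTTGATGATGAA
Ankrd17 exons 5 to 11: tcttaattagcaaagGTTTTATTGGCAATG
Ankib1 exons 2 to 5: tgcttcgagctcacgAATGTGAAACATGTT
Ank2 exons 5 to 10: ctggcgaggaccaagAATGGCTTCACTCCT
Ank3 exons 36 to 38: atgacccagttgatgGTCCGCAGAGTCCTT
Anks1b exons 5 to 8: ggaagccagagtgtaACAGAAAAGGGGAGT

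In the coordinates of the files (GRCm39), the main Ankrd12 circle was chr17:66331071-66360086 on the minus strand. It held 994 bases of exons 2 to 8 of the 13 exons of Ankrd12-201, of which 943 were coding and 51 lay before the start codon, which the circle contained. The introns before and after it, of 23792 and 36582 bases, were the 2 longest of that transcript, whose median intron measured 3802 bases. The main Ankib1 circle (chr5:3797021-3822787, minus strand, 873 bases, exons 2 to 5 of 20) also held the start codon and followed the longest intron of its transcript, of 29809 bases. The main Ankrd11 circle (chr8:123635407-123642784, minus strand, 284 bases, exons 3 to 4 of 13) held the start codon as well.

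The other main circles consisted of coding exons alone and held no start codon. The main Ankrd17 circle (chr5:90435108-90445993, minus strand) held 1105 bases of exons 5 to 11 of 34, between introns of 405 and 1285 bases, both under the transcript median of 1481, so a long flanking intron was not shared by all 7 genes. The main Ank2 circle (chr3:126832396-126850740, minus strand) held 606 bases of exons 5 to 10 of 46. The main Ank3 circle (chr10:69830202-69835328, plus strand) held 351 bases of exons 36 to 38 of 46. The main Anks1b circle (chr10:89905330-89913004, plus strand) held 459 bases of exons 5 to 8 of 26.

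Illumina libraries held 1516772 to 4308264 back-splice reads in 21736 to 76743 circles, and ONT libraries 186594 to 673705 reads in 22347 to 47174 circles. Adar1-2KO replicate 3 had the most Illumina reads in the fewest circles, 21736 against at least 54244 in each other library, and 101 circles of the 7 genes against 215 to 284. ONT data of wild type replicate 1 and CIRI2 data of Adar1-2KO replicate 1 were not analysed here. In bulk tissue, fewer cells of a type and less RNA per cell cannot be told apart. The summed level of circles from 8 neuron marker genes was 23945 to 29413 CPM (back-splice counts scaled to a common library size) in the 9 Illumina libraries, while only 2 of 8 microglia marker genes gave enough circle reads to be tested, with Csf1r, Cx3cr1, P2ry12, Tmem119, C1qa and Inpp5d not among them. Adarb1, the gene of ADAR2, still gave circle reads in every library, at 44.6 to 63.1 CPM in wild type brains, 111 to 157 CPM in Adar2KO brains and 97.6 to 190 CPM in Adar1-2KO brains; which exons the allele lacks is not given in the sources used here, so these reads check no label.

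Together the 7 genes gave 2.05% of all Illumina back-splice reads and 2.47% of all ONT reads. Anks1b was the richest host on Illumina, ranking 5 of 8383 genes tested by wild type level, and Ankib1 ranked 18. Ankrd12 ranked 189, Ankrd17 354, Ank3 725, Ank2 739 and Ankrd11 1410.

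Levels of all circles of a gene were counted at junctions, so transcript length did not enter, and circle length was not corrected for. In wild type brains, Anks1b circles reached 9841 ± 1595 CPM and Ankib1 circles 4983 ± 309 CPM (SD, n = 3). Ankrd12 circles stood at 944 ± 86.9 CPM, Ankrd17 circles at 576 ± 78.7 CPM and Ankrd11 circles at 128 ± 11.4 CPM (SD, n = 3). Ank3 (295 ± 119 CPM) and Ank2 (290 ± 119 CPM) were neighbours in that order and overlapped between libraries, while Anks1b, Ankib1, Ankrd12, Ankrd17 and Ankrd11 did not overlap with their neighbours in the wild type libraries. The order on ONT began with Ankrd12, at 13524 and 13635 CPM in the 2 wild type libraries, above Anks1b at 7687 and 8331 CPM and Ankib1 at 3700 and 4073 CPM. Ankrd12 was thus below Anks1b and Ankib1 on Illumina and above both on ONT. Ank3, at 755 and 828 CPM, stood above Ankrd17, at 453 and 565 CPM, on ONT, the opposite of their order on Illumina. The Ankrd12 main circle alone ranked 2 of 10367 ONT circles tested by wild type level.

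**Figure D1:**
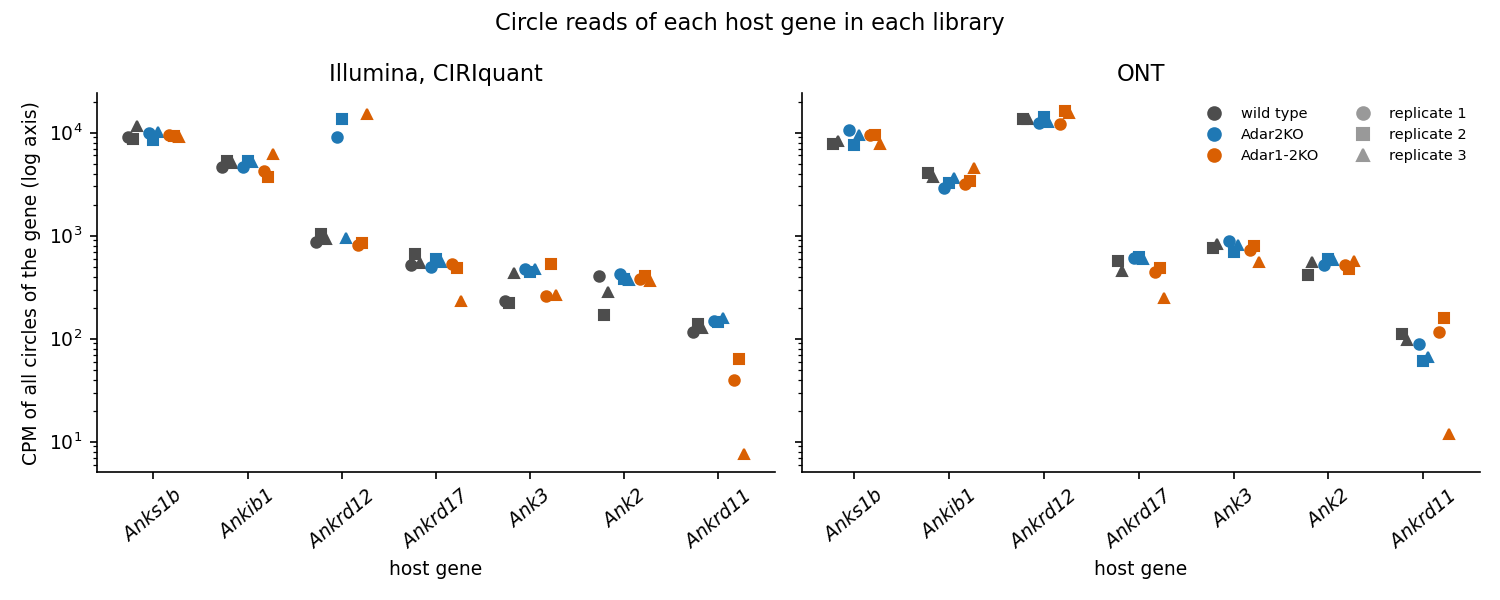
Level of all circles of each gene in each library, in CPM on a log axis, on Illumina (left) and ONT (right). Colours mark genotypes and shapes mark replicates. On Illumina, Ankrd12 splits into 3 libraries between 9089 and 15315 CPM and 6 between 805 and 1039 CPM, and on ONT all 8 libraries lie between 12031 and 16324 CPM.

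The genes differed in how far 1 circle dominated. The main circle took 92.7% of Illumina and 91.9% of ONT reads of Ankib1, and 83.2% and 83.3% of those of Ankrd12. It took 62.8% and 51.8% for Anks1b, 71.0% and 52.9% for Ankrd11, 57.5% and 38.6% for Ank3, 40.78% and 40% for Ankrd17, and 36.4% and 25.4% for Ank2. Ank2 was the most dispersed of the 7, with 29 of its 187 Illumina circles needed to reach 90% of its reads, against 1 of 63 for Ankib1, 2 of 32 for Ankrd12 and 7 of 167 for Anks1b.

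Minor circles often reused an end of the main circle. Circles that began at the acceptor of Ankrd12 exon 2 made up 98.9% of the Illumina and 98.4% of the ONT reads of that gene. The same share for the acceptor of Ankib1 exon 2 was 97.2% and 98.8%. For Anks1b it was the donor of exon 8 that was shared, by 83.1% of Illumina and 76.7% of ONT reads. The second Anks1b circle, exons 4 to 8 (chr10:89885678-89913004, 756 bases), used that donor and ranged from 1437 to 1854 CPM on Illumina and from 1683 to 2643 CPM on ONT. In Ank2 the acceptor of exon 5 was used by 67.6% of its Illumina reads, while the main circle gave 36.4% of them all. Ank3 and Ankrd17 showed little of it. The main Ank3 circle gave 57.5% of its Illumina reads, and 58.8% and 57.6% shared its start or its end, while for Ankrd17 41.9% and 42.8% did, beside 40.78% for the main circle.

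The main Anks1b circle was seen at similar levels in all libraries. Its back-splice reads were 17967, 11126 and 11939 in wild type brains, 16829, 11424 and 19904 in Adar2KO brains and 19690, 12569 and 22423 in Adar1-2KO brains, in replicate order. On ONT it had 715 and 726 reads in wild type replicates 2 and 3, 1973, 1422 and 1870 in Adar2KO brains and 1970, 1240 and 2265 in Adar1-2KO brains. Scaled for library size, this was 5258 to 7971 CPM on Illumina and 4421 to 6964 CPM on ONT, with overlapping genotypes on both. The main Ankib1 circle ranged from 3568 to 5879 CPM on Illumina and from 3039 to 4897 CPM on ONT, again with overlap.

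The main Ankrd12 circle behaved otherwise on Illumina. CIRIquant gave it no read in wild type replicates 1, 2 and 3, then 22129, 27573 and 0 reads in Adar2KO replicates 1 to 3 and 0, 0 and 57373 in Adar1-2KO replicates 1 to 3. It was thus either unlisted or among the most abundant circles of a library, at 9116, 12719 and 14815 CPM in the 3 libraries that listed it. ONT read it in every library, with 2106 and 1906 reads in wild type replicates 2 and 3, 3345, 4915 and 4018 in Adar2KO brains and 3943, 3512 and 7255 in Adar1-2KO brains. The ONT levels of 11806 to 16062 CPM overlapped between genotypes and did not separate the libraries that listed the circle on Illumina from those that did not.

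**Figure D2:**
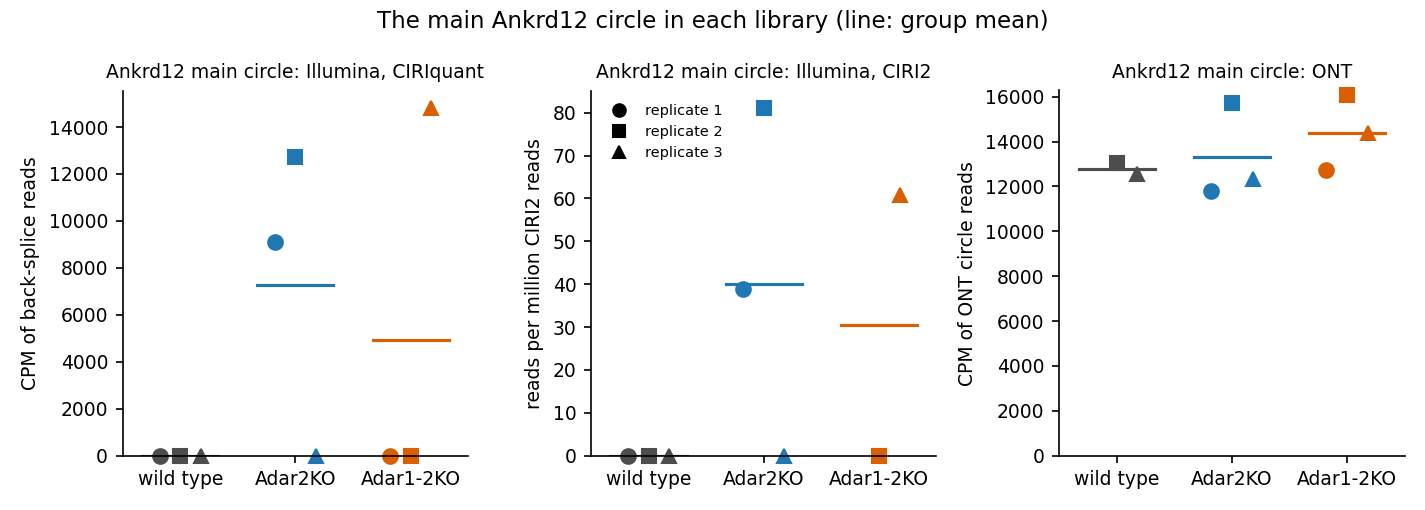
The main Ankrd12 circle in each library as CIRIquant counted it (left), as CIRI2 counted it (middle) and as ONT read it (right), in CPM; lines are group means. The 3 Illumina libraries that list it reach 9116 to 14815 CPM with CIRIquant and 38.9 to 81.1 CPM with CIRI2, while all 8 ONT libraries lie between 11806 and 16062 CPM.

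Of the libraries with CIRI2 data, that caller listed the Ankrd12 circle in the same 3, with 131, 232 and 326 reads. CIRIquant therefore counted 169, 119 and 176 times as many reads as CIRI2 in Adar2KO replicates 1 and 2 and Adar1-2KO replicate 3. Over all 39200 pairs of a circle and a library with at least 100 CIRI2 reads, the median ratio was 0.869, with the 5th percentile at 0.193 and the 95th at 1.01, and these 3 were the only pairs above 10. In the 8 libraries with both tables, every circle in the CIRIquant table was also in the CIRI2 table of that library. Forward-splice reads at the ends of the circle were 3224, 5646 and 0 in the 3 libraries.

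The split did not follow genotype, and it coincided with the flow cell given in the read names of the CIRI2 tables. The 5 libraries whose reads came wholly or mostly (at least 87.4%) from 1 flow cell (wild type replicates 1 to 3, Adar2KO replicate 3 and Adar1-2KO replicate 2) did not list the circle, and the 3 whose largest flow cell was another (Adar2KO replicates 1 and 2 and Adar1-2KO replicate 3) did. Of those 3, Adar2KO replicates 1 and 2 had 90.1% and 95.8% of reads from the same flow cell. Adar1-2KO replicate 3 had 51.3% from a different flow cell and the rest from another, so its reads were mixed. No flow cell was given for Adar1-2KO replicate 1, which did not list the circle. It was the only one of 208914 circles with at least 100 reads in all 3 of those libraries and none in the 5, and none with at least 100 reads showed the reverse. At a minimum of 1 read, 46 circles showed the pattern and 233 the reverse. The part of the flow cell in the listing was not tested, and because all wild type libraries were from that 1 flow cell, an Illumina comparison of this circle with wild type was confounded with it.

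Junctions of 4 shorter circles that ONT read from the same acceptor are shown because none of them was listed by CIRIquant or CIRI2 in any Illumina library. The main circle is repeated for comparison. All join the acceptor in capitals, the first bases of Ankrd12 exon 2, and differ in the donor in lower case. For exons 2 to 3, ONT listed 7 exon chains between these ends, and the name is that of the chain of 286 bases found in all 7 libraries that listed the circle.
Ankrd12 exons 2 to 8: atgaaagttatacagATCCAGGATGAGAAG
Ankrd12 exons 2 to 7: agtggccatagagacATCCAGGATGAGAAG
Ankrd12 exons 2 to 6: tgaaggactttgcagATCCAGGATGAGAAG
Ankrd12 exons 2 to 5: gggacaacagcccagATCCAGGATGAGAAG
Ankrd12 exons 2 to 3: gcgactcagacacagATCCAGGATGAGAAG

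The circle of exons 2 to 5 (chr17:66344488-66360086, 502 bases) had 149 and 175 ONT reads in wild type brains, 394, 261 and 393 in Adar2KO brains and 457, 343 and 1361 in Adar1-2KO brains. Its 3533 reads ranked 5 among all 166212 ONT circles by reads in libraries whose same-numbered Illumina library did not list the circle, and the main Ankrd12 circle ranked 1 with 15485. Exons 2 to 7 (chr17:66334247-66360086) had 497 such reads, exons 2 to 6 (chr17:66338366-66360086) 244 and exons 2 to 3 (chr17:66356781-66360086) 105. A further pair used the donor of exon 8, namely exons 3 to 8 (chr17:66331071-66356928) with 293 reads and exons 5 to 8 (chr17:66331071-66344634) with 60. Both were likewise unlisted on Illumina.

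Other circles from the exon 2 acceptor were listed in every Illumina library, so the acceptor itself was not unlisted. A circle at chr17:66318284-66360086 had 481 to 1233 back-splice reads per Illumina library and 68 to 252 ONT reads. By ONT it held the 7 exons of the main circle and 1 more of 80 bases, at chr17:66318284-66318363, which lay 12707 bases past the main circle and matched no exon chain in the GENCODE M21 transcripts. A circle at chr17:66327380-66360086, typed as intronic and ending 3691 bases past the main circle, had 690 to 1749 Illumina reads and was unlisted in all 8 ONT libraries. Its Illumina levels were 316 to 578 CPM, and those of the former circle 216 to 496 CPM, with overlap between the libraries that did and did not list the main circle.

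Across all 7 genes, 389 of 936 pairs of an ONT circle and its same-numbered library, or 41.6%, were unlisted on Illumina, against 56.9% over all circles. With at least 5 ONT reads the shares were 22.3% and 29.1%. With at least 50 reads they were 18.03% and 8.02%, and 21 of the 22 unlisted pairs were from Ankrd12. All 6 unlisted pairs with at least 500 reads were from Ankrd12. By gene, the share at any ONT read was 79.5% for Ankrd12, 58.2% for Ank2, 53.0% for Ank3, 44.4% for Ankrd11, 33.6% for Ankrd17, 16.2% for Ankib1 and 15.7% for Anks1b. Same-numbered libraries are not stated to be from 1 animal. Where both platforms listed a circle of the 7 genes, the reads had a Spearman rho of 0.82 to 0.95 within a library (52 to 85 circles), given as a description over circles that share libraries.

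**Figure D3:**
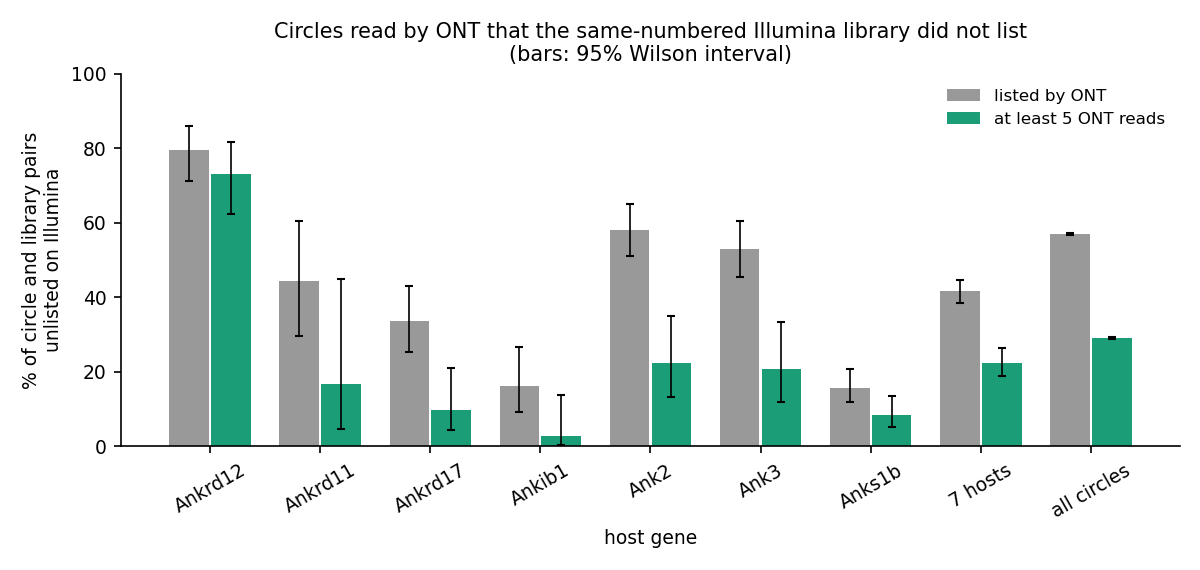
Share of ONT circle and library pairs that the same-numbered Illumina library did not list, for any ONT read (grey) and for at least 5 ONT reads (green). The 95% Wilson intervals cover counting error only and treat the pairs as independent. Ankrd12 falls from 79.5% to 73.1%, and all 7 genes from 41.6% to 22.3%.

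Genotypes were compared with edgeR's quasi-likelihood test over all circles that reached 5 reads in 3 or more libraries, which 153 of the 705 Illumina circles and 60 of the 419 ONT circles of the 7 genes passed, and p-values were adjusted by Benjamini-Hochberg over all circles tested. Both mutants were compared with the same wild type libraries. No circle of the 7 genes passed an adjusted p of 0.05 on Illumina. Of all Illumina circles tested, 0.0209% passed in Adar2KO against wild type, 0.0627% in Adar1-2KO against wild type and 0.0209% in Adar1-2KO against Adar2KO. None passed on ONT either, where 0.00965%, 0% and 0.473% of all circles did in the same order. At shares this low, the lack of a call among 153 or 60 circles is not a result about these genes.

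At an unadjusted p under 0.05, the members counted 3 of 153 in Adar2KO against wild type, 9 in Adar1-2KO against wild type and 9 in Adar1-2KO against Adar2KO on Illumina, or 1.96%, 5.88% and 5.88%, against 1.82%, 6.74% and 6.38% of all circles. On ONT they counted 4, 4 and 7 of 60, or 6.67%, 6.67% and 11.7%, against 4.21%, 7.32% and 10.4%. Median log2 changes of the members on Illumina were 0.03, -0.22 and -0.27, beside 0.04, -0.26 and -0.31 over all circles. On ONT the medians were 0.24, 0.16 and -0.14, beside 0.16, 0.03 and -0.21. These counts and medians describe circles that passed the read minimum.

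Ankrd11 held the circle nearest to a call. The main circle had 274, 229 and 159 reads in wild type brains, 316, 267 and 393 in Adar2KO brains and 0, 0 and 18 in Adar1-2KO brains, in replicate order. All 3 Adar1-2KO libraries lay below every other library, at 0, 0 and 4.65 CPM against 92.6 to 140 CPM. The log2 change was -5.90 ± 1.08 (SE) against wild type (edgeR adjusted p = 0.0885) and -6.26 ± 1.1 against Adar2KO (edgeR adjusted p = 0.0906). CIRI2 gave 324, 301 and 240 reads in wild type brains, 393, 312 and 510 in Adar2KO brains and 0 and 31 in Adar1-2KO replicates 2 and 3.

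ONT did not show this difference. It read the Ankrd11 circle 10 and 12 times in wild type brains, 21, 4 and 15 times in Adar2KO brains and 22, 23 and 3 times in Adar1-2KO brains. Replicates 1 and 2 of Adar1-2KO, in which Illumina listed no read, were at 71.1 and 105 CPM on ONT, within or above the 12.8 to 79.0 CPM of the other genotypes, and replicate 3 was at 5.95 CPM. The log2 change on ONT was -0.25 ± 1.01 against wild type (edgeR adjusted p = 0.992) and 0.42 ± 0.90 against Adar2KO (edgeR adjusted p = 0.943). For all Ankrd11 circles together, Adar1-2KO replicate 3 was the lowest library on both platforms, at 7.53 CPM on Illumina and 11.9 CPM on ONT.

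The call of the Ankrd11 circle depended on that library and on the tool. Without Adar1-2KO replicate 3 the adjusted p of edgeR was 0.000193 against wild type and 0.000148 against Adar2KO, with no read left in Adar1-2KO, and DESeq2 on all libraries gave adjusted p = 4.64e-05 and 1.36e-05. With CIRI2 reads the adjusted p was 0.215 and 0.197 (edgeR). In the authors' deposited table of Adar1-2KO against wild type, the log2 fold change was -8.26, a standard error of 1.30 and an adjusted p of 1.12e-05, rank 3 of 160909 circles by p. It was the only 1 of 573 circles of the 7 genes there with an adjusted p under 0.05, a mark that 54 circles (0.0336%) reached. The same table gave the main Ankrd12 circle a base mean of 0, as it did all 3088 circles whose only reads in its 2 genotypes were in Adar1-2KO replicate 3, and 0 of those read in only 1 of the other 5 libraries. The part of that library in the authors' result was not tested.

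The other Ankrd11 circles did not share the drop. The circle of exons 3 to 7 (chr8:123625313-123642784), which uses the same acceptor, had 50, 36 and 11 reads in wild type brains, 41, 16 and 24 in Adar2KO brains and 68, 74 and 3 in Adar1-2KO brains. Exons 2 to 4 (chr8:123635407-123701531), which uses the same donor, had 24, 6 and 7, then 16, 15 and 46, then 35, 10 and 3. In both, Adar1-2KO replicates 1 and 2 lay within or above the other libraries and replicate 3 was the lowest. As a result, the share of the main circle in the Ankrd11 reads was 78.9% ± 4.34 in wild type, 82.6% ± 0.0790 in Adar2KO brains and 20% ± 34.6 in Adar1-2KO brains (SD, n = 3 each). The groups did not overlap, and the two-sided exact permutation p was 0.1 against either group, the smallest that 3 against 3 allows (0.42 adjusted over 21 such tests). On ONT the shares were 62.5% ± 17.7 (n = 2), 49.7% ± 29.3 and 48.9% ± 6.69 (n = 3 each), with overlap.

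**Figure D4:**
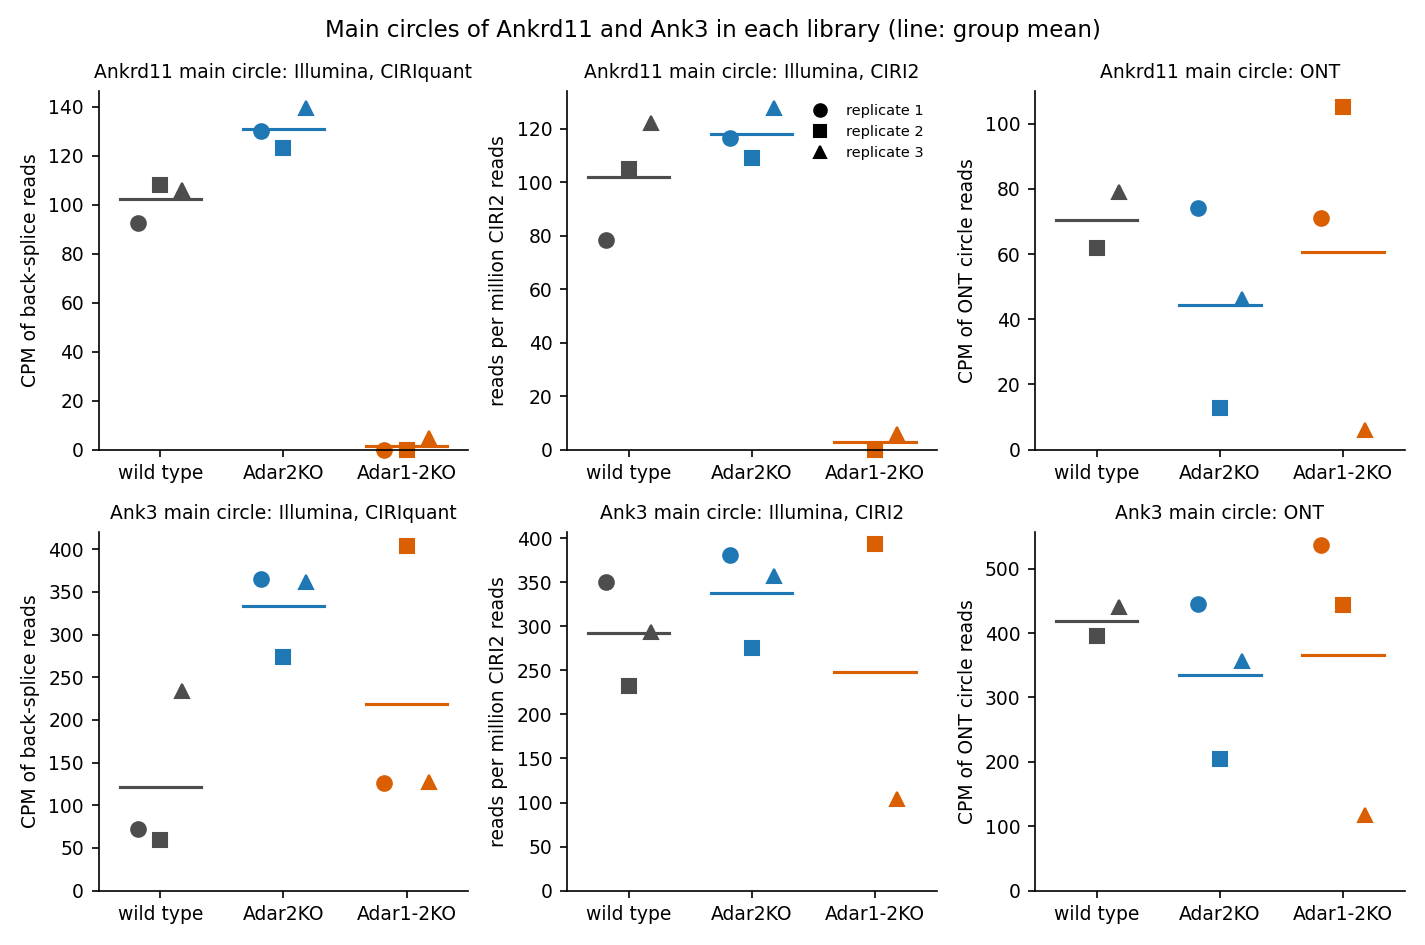
The main circles of Ankrd11 (top) and Ank3 (bottom) in each library with CIRIquant, CIRI2 and ONT, in CPM; lines are group means and shapes mark replicates. For Ankrd11, the Adar1-2KO libraries lie at 0, 0 and 4.65 CPM with CIRIquant and at 71.1, 105 and 5.95 CPM on ONT.

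Ank3 held the member with the lowest p in Adar2KO against wild type among those listed in every library. CIRIquant gave its main circle 215, 125 and 350 reads in wild type brains, 887, 593 and 1016 in Adar2KO brains and 400, 863 and 492 in Adar1-2KO brains. The Adar2KO libraries, at 274 to 365 CPM, all lay above the wild type libraries, at 59.1 to 234 CPM. The log2 change was 1.45 ± 0.54 (edgeR adjusted p = 1) against wild type, and 0.85 ± 0.53 in Adar1-2KO, whose libraries overlapped with wild type.

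CIRI2 reads of the Ank3 circle did not differ in this way. They were 1446, 667 and 577 in wild type brains, 1282, 786 and 1422 in Adar2KO brains and 1106 and 558 in Adar1-2KO replicates 2 and 3, and the log2 change in Adar2KO was 0.26 ± 0.38 (edgeR adjusted p = 1). CIRIquant had counted 0.149, 0.187 and 0.607 times the CIRI2 reads in the wild type libraries and 0.692, 0.754 and 0.714 times in the Adar2KO libraries. The ratios of wild type replicates 1 and 2 lay under the 5th percentile of all pairs, and over 23 pairs of Ank3 circles the median ratio was 0.316. On ONT the circle had 64 and 67 reads in wild type brains, 126, 64 and 116 in Adar2KO brains and 166, 97 and 59 in Adar1-2KO brains, and the log2 change in Adar2KO was -0.32 ± 0.54. In the authors' deposited table of Adar2KO against wild type, which listed 772 circles, the Ank3 circle was the 1 member, with a log2 fold change of 1.37, p = 0.0370 and an adjusted p of 1.

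The share of the main circle in the Ank3 reads moved with the caller too. With CIRIquant it was 36.9% ± 14.9 in wild type and 67.6% ± 6.80 in Adar2KO (SD, n = 3 each) without overlap (exact permutation p = 0.1, adjusted 0.42). With CIRI2 the difference was 5.17 percentage points, and on ONT the Adar2KO share was lower, at 34.8% ± 10.6 (n = 3) against 48.2% ± 1.06 (n = 2). No such difference reached an adjusted p below 0.42 on Illumina or 0.70 on ONT for any of the 7 genes.

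Ank2 circles showed single unlisted libraries. The main Ank2 circle had 452, 0 and 217 reads in wild type brains, 401, 292 and 307 in Adar2KO brains and 480, 344 and 694 in Adar1-2KO brains, and the unlisted wild type replicate 2 had 19 ONT reads. The circle of exons 5 to 9 (chr3:126840374-126850740), with the same acceptor, had 363, 89 and 0 reads in wild type brains, 346, 247 and 310 in Adar2KO brains and 380, 309 and 32 in Adar1-2KO brains. Its unlisted wild type replicate 3 had 15 ONT reads. All Ank2 circles together stood at 290 ± 119 CPM in wild type brains, 391 ± 32.1 in Adar2KO brains and 381 ± 23.4 in Adar1-2KO brains (SD, n = 3 each), with log2 changes of 0.43 ± 0.27 and 0.39 ± 0.27 against wild type (edgeR adjusted p = 1 and 0.789).

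Anks1b held the ONT circles of lowest p. Exons 18 to 19 (chr10:90730961-90733288, 288 bases, behind an intron of 214179 bases, the longest of the transcript) stood at 86.6 and 46.1 CPM in wild type brains, 49.4, 28.8 and 55.3 CPM in Adar2KO brains and 220, 178 and 115 CPM in Adar1-2KO brains on ONT. All 3 Adar1-2KO libraries lay above all others. The log2 change was 1.93 ± 0.46 against Adar2KO (edgeR adjusted p = 0.158) and 1.35 ± 0.54 against wild type (edgeR adjusted p = 0.632). DESeq2 gave the former an adjusted p of 0.0333, and edgeR gave 0.0266 without Adar1-2KO replicate 3. The Illumina reads were 416, 211 and 258 in wild type brains, 567, 233 and 881 in Adar2KO brains and 660, 494 and 963 in Adar1-2KO brains, with overlap and a log2 change of 0.07 against Adar2KO and 0.74 against wild type.

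A second Anks1b circle, exons 7 to 9 of Anks1b-219 (chr10:90750558-90759464, 273 bases), stood at 55.7 and 65.8 CPM in wild type brains, 194, 262 and 190 CPM in Adar2KO brains and 74.3, 50.3 and 135 CPM in Adar1-2KO brains on ONT. Adar2KO was above all other libraries, with a log2 change of 1.82 ± 0.51 against wild type (edgeR adjusted p = 1), and Adar1-2KO differed from Adar2KO by -1.29 ± 0.41 (edgeR adjusted p = 0.272, or 0.0304 without Adar1-2KO replicate 3). Illumina gave it 175, 120 and 0 reads in wild type brains, 208, 113 and 0 in Adar2KO brains and 323, 171 and 598 in Adar1-2KO brains, so 2 libraries did not list it, of which wild type replicate 3 had 10 and Adar2KO replicate 3 had 62 ONT reads. The Illumina log2 change in Adar2KO was 0.24 ± 1.34.

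Further Anks1b circles of low p on ONT, which did not pass, were chr10:90730961-90759464 and chr10:89878408-89885974. On ONT the former stood at 204 to 296 CPM in wild type, 381 to 587 in Adar2KO and 357 to 514 in Adar1-2KO brains. The latter, with 88 reads, stood at 0 to 12.4, 38.4 to 56.5 and 27.4 to 45.6 CPM. Genotypes overlapped on Illumina for both. Other members of low p on Illumina were rare circles. Exons 10 to 11 of Ankrd12 (chr17:66283016-66286595) had 23, 31 and 15 Illumina reads in wild type brains, 15, 2 and 20 in Adar2KO brains and 1, 0 and 0 in Adar1-2KO brains (adjusted p = 0.688 with edgeR and 0.0148 with DESeq2 against wild type). ONT read it 0 and 0 times in wild type brains, 4, 5 and 6 times in Adar2KO brains and 0, 2 and 0 times in Adar1-2KO brains. An Anks1b circle at chr10:90730961-90757286 had 4, 2 and 0 reads in wild type brains, 6, 7 and 12 in Adar2KO brains and none in Adar1-2KO brains (edgeR adjusted p = 0.764 against Adar2KO), and ONT did not list it. An Ankrd17 circle of exons 26 to 27 (chr5:90400726-90401801) had 11, 5 and 4 reads in wild type brains, none in Adar2KO brains and 11 in Adar1-2KO brains replicate 2 alone (edgeR adjusted p = 1 in Adar2KO against wild type).

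On ONT, the Ankrd12 circle of exons 2 to 5 was higher in Adar1-2KO than in wild type by 0.89 ± 0.33 (log2, edgeR adjusted p = 0.555), its replicate 3 being the highest at 2698 CPM. The main Ankrd12 circle differed by 0.17 ± 0.20 in that comparison, and by 0.06 ± 0.20 in Adar2KO against wild type. The Ank3 circle of exons 25 to 34 (chr10:69768239-69816224, 1570 bases) stood at 241 and 151 CPM in wild type brains, 237, 291 and 215 CPM in Adar2KO brains and 123, 142 and 73.4 CPM in Adar1-2KO brains on ONT, without overlap between the mutants (log2 -1.15 ± 0.35, edgeR adjusted p = 0.256). On Illumina it was at 32.3 to 38.3 CPM in Adar2KO and 23.8 to 27.1 CPM in Adar1-2KO, with a log2 change of -0.46 ± 0.59 (edgeR adjusted p = 1). CIRIquant counted 0.263 to 0.379 times the CIRI2 reads of this circle in the 8 libraries with both.

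**Figure D5:**
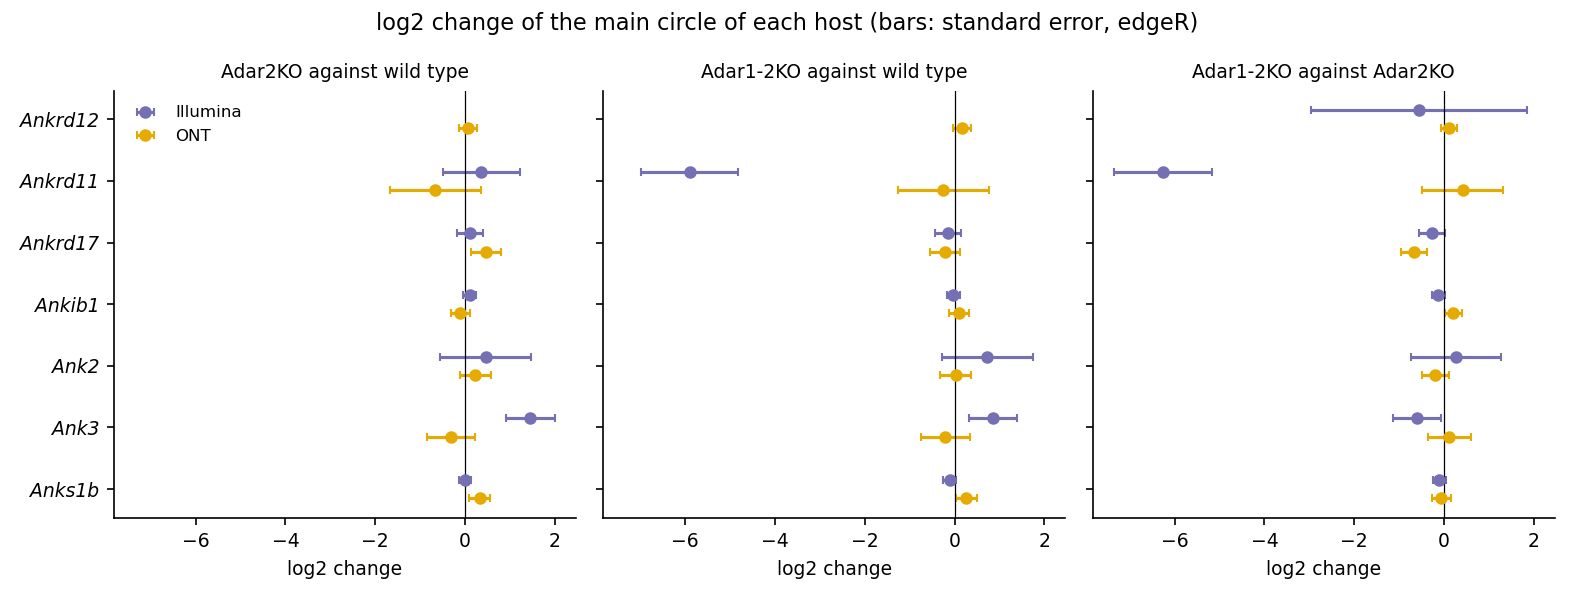
log2 change of the main circle of each gene in the 3 comparisons, with standard errors from edgeR, on Illumina (purple) and ONT (yellow). Ankrd12 has no Illumina point against wild type, where all 3 wild type libraries are at 0; Ankrd11 lies at -5.90 and -6.26 on Illumina and at -0.25 and 0.42 on ONT.

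Summed by gene, none of the 7 passed in any comparison on either platform. In Adar1-2KO against Adar2KO the median log2 change of the 7 was -0.40 on Illumina, beside -0.09 over all genes, and -0.05 on ONT, beside 0.00. On Illumina the 7 included Ank2 at -0.04 ± 0.27. They also included Ankrd12, whose main circle was listed in only some libraries of both mutants. Of all genes tested, 0.0716%, 0.0954% and 0.0477% passed on Illumina in Adar2KO against wild type, Adar1-2KO against wild type and Adar1-2KO against Adar2KO, and 0.076%, 0.038% and 1.04% on ONT. Ankrd11 circles together had a log2 change of -1.81 ± 0.54 in Adar1-2KO against wild type (edgeR adjusted p = 0.500) and of -2.03 ± 0.55 against Adar2KO (edgeR adjusted p = 0.593, or 0.0432 without Adar1-2KO replicate 3 and 0.0416 with DESeq2). The ONT values were -0.17 ± 0.75 and 0.38 ± 0.66. For Ankrd12, the Illumina values of 3.05 ± 1.06 in Adar2KO and 2.58 ± 1.04 in Adar1-2KO against wild type (edgeR adjusted p = 1 and 0.599) carried the listing of its main circle, and the ONT values were -0.06 ± 0.16 and 0.11 ± 0.16. Ankrd17 circles together were lowest in Adar1-2KO replicate 3 on both platforms, at 231 CPM on Illumina and 246 CPM on ONT, with a log2 change of -0.64 ± 0.25 against Adar2KO on ONT (edgeR adjusted p = 0.268). The 18 Ankrd17 circles tested on Illumina had a median log2 change of -0.96 in Adar1-2KO against wild type, beside -0.26 over all circles. On ONT the 6 tested had a median of -0.22, beside 0.03. These circles shared libraries, Adar1-2KO replicate 3 included, and the medians describe circles that passed the read minimum. Anks1b and Ankib1 circles together differed by at most 0.25 on the log2 scale in every comparison.

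The circular share of a junction, that is back-splice against forward-splice reads at the same ends, could be tested for 39 circles of the 7 genes, and none passed (limma). Of all 6353 circles tested, 0.0787%, 0.0944% and 0.189% passed in the same order of comparisons. The share rested on forward counts that were often 0. Among the 15 circles of the 7 genes with at least 100 back-splice reads in every library, forward reads were 0 in 56.3% of 135 pairs of a circle and a library, against 47.7% of 15201 pairs overall. The main Ankib1 circle had no forward reads in any of the 9 libraries, and the main Anks1b circle had none in 8 and 7019 in Adar1-2KO replicate 3.

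Related genes were examined from lists of known partners and relatives. On Illumina, no gene of 5 such lists passed in any comparison: 26 tested genes of the membrane skeleton and axon initial segment, 52 other ankyrin repeat genes, 10 nuclear receptor cofactors and deacetylases, 12 RING-between-RING ligases and 15 postsynaptic density partners. Their median log2 changes in Adar1-2KO against Adar2KO were -0.28, -0.08, -0.15, -0.07 and 0.04, beside -0.09 over all genes. On ONT, where that comparison had 1.04% of all genes called, 1 of 24, 2 of 42, 1 of 9, 0 of 9 and 0 of 15 genes passed. The ONT medians of the 5 lists were -0.07, 0.12, -0.54, 0.07 and -0.26, beside 0.00 over all genes.

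Of the genes that passed on ONT, those described here are an ankyrin repeat gene and a cofactor gene. Circles of Acap2, an ARF GTPase-activating protein, rose by 1.47 on the log2 scale (SE 0.17, edgeR adjusted p = 0.00172). Circles of Ncoa2, a p160 coactivator, rose by 2.15 (SE 0.31, edgeR adjusted p = 0.00474). The Illumina values of the same comparison were 0.03 for Acap2 and 1.45 for Ncoa2, neither of which passed.

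Cell type markers were read beside these values. Of the neuron markers, Syt1 rose by 1.01 (SE 0.20) on ONT in Adar1-2KO against Adar2KO (edgeR adjusted p = 0.0255), and 0 of 8 passed on Illumina. The summed level of the 5 tested endothelial and pericyte markers was 49.2 to 87.0 CPM in Adar1-2KO, 31.3 to 41.7 CPM in wild type and 20.97 to 30.4 CPM in Adar2KO, with Cldn5, Abcb1a and Pdgfrb not reaching the read minimum. Single markers did not move alike. On Illumina in Adar1-2KO against wild type, Flt1 changed by 3.00 from 3.06 CPM and Pecam1 by 0.44 (log2). Atp13a5 changed by 0.03 and Slco1a4 by -0.40, and none of them passed. The part of these markers in the values of the 7 genes was not tested. The summed oligodendrocyte lineage markers were at 395 to 541 CPM in Adar1-2KO, 332 to 385 CPM in wild type and 356 to 448 CPM in Adar2KO. In the same Illumina comparison, Mbp changed by 3.36 from 4.89 CPM and St18 by 0.31. Enpp2 changed by -0.98 and Pdgfra by -1.13, and none of these passed. The part of the oligodendrocyte lineage markers was likewise not tested. The astrocyte sums were at 569 to 630 CPM in Adar2KO, above the 524 to 563 CPM of wild type, and overlapped with Adar1-2KO, while the microglia sums overlapped between all genotypes.

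By Pearson correlation of log2(CPM + 0.5) over the 9 Illumina libraries, among 2481 genes with a mean of at least 50 CPM, the circles most like those of Ankrd12 came from Dhx35 (r = 0.889) and Ugt8a (r = 0.835). Those most like Ankrd11 came from Golim4 (r = 0.989) and Ubap1 (r = 0.968), and those most like Ankrd17 from Bahd1 (r = 0.988) and Paxip1 (r = 0.982). For Ankib1 they were Satb1 (r = 0.951) and Zyg11b (r = 0.941), for Ank2 Rragb (r = 0.931) and Ap4s1 (r = 0.923), for Ank3 Faxc (r = 0.869) and Sh3bgr (r = 0.862), and for Anks1b Sorcs3 (r = 0.882) and Plxdc2 (r = 0.856). The points share libraries, depth and flow cells, and the highest of many correlations over 9 points are given as a description. On chromosome 10, Ank3 lay 7.29 Mb and Anks1b 12.7 Mb from Adarb1, and on chromosome 3, Ank2 lay 37.2 Mb from Adar and 46.1 Mb from Gria2.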

How the data were processed

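Total RNA from mouse brain was depleted of ribosomal RNA, treated with RNase R, copied by rolling reverse transcription, and sequenced on Illumina after tagmentation and on ONT, per the labels' protocols. The authors deposited CIRIquant 1.1.2 tables per library, per the file headers, with back-splice and forward-splice counts, a CPM and a junction ratio (fraction), of which only the counts were used. They also deposited CIRI2 counts, ONT read counts per circle, and tables with base mean, log2 fold change, Wald score, standard error and p-value. BWA 0.7.17, DESeq2 2.11.40.8 and GRCm39 are named in the submitters' processing notes. The CIRI2 version and the ONT caller are not given in the sources used here. In the Adar1-2KO CIRIquant tables the deposited values stood 1 column right of their header and were read by content.

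Circles were assigned by the annotation's gene name. In circles with several names, those of predicted genes and small RNA genes (such as LOC, Gm or Mir names) were set aside. Where 1 name was left, the circle was counted in the sums of that gene, and gene sums left out the others. Counts were tested with edgeR 4.0.16 (R 4.3.3; TMM, quasi-likelihood), 1 fit per platform over all circles that reached 5 reads in 3 or more libraries, and CPM printed here were computed from these counts and the library sizes after TMM, or for CIRI2 from its total. Circular shares, log2((back-splice + 0.5)/(forward-splice + 0.5)), were tested with limma 3.58.1 where both counts summed to at least 20 in every library, and shares of the main circle with exact permutation tests (scipy 1.17.1). Alternatives were DESeq2 1.42.0, other thresholds, filters and scalings, CIRI2 counts, the libraries of 1 flow cell, a replicate block and each library left out. The p-values of the fits rest on the spread between the samples within groups, 3 per group but 2 for wild type on ONT. All 3 genotypes entered each fit and shared 1 estimate of the spread. Depth was 1516772 to 4308264 back-splice reads per Illumina library and 186594 to 673705 per ONT library, counts of PCR copies without molecular identifiers. The Wilson intervals cover counting error only. They treat pairs of a circle and a library as independent, although circles recur over libraries, and can be too narrow. The tables list only detected circles, so an unlisted circle has no upper limit from depth. Scripts were tested on simulated data. Genes, gene lists and named circles (the 3 most read per gene, the 3 of lowest p per comparison and platform, and the 10 most read by ONT where unlisted on Illumina) were chosen with earlier results of these data known. Some genes of the lists are not reported here by name.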

Additional observations from a re-analysis of the deposited data

How the results depend on the processing

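The number of circles of the 7 genes past the threshold was 0 in every comparison, and several alternatives gave calls. On Illumina, for Adar1-2KO against Adar2KO, Adar1-2KO against wild type and Adar2KO against wild type in this order, DESeq2 gave 1, 3 and 1 calls, and a minimum of 1 read in 2 libraries gave 2, 2 and 1, while a threshold of 0.1 gave 1, 1 and 0. With DESeq2 and with the minimum of 1 read, the call in Adar2KO against wild type was the main Ankrd12 circle. It was also among the calls in Adar1-2KO against wild type, and with the minimum of 1 read in Adar1-2KO against Adar2KO. Its comparison with wild type was confounded with the flow cell. Leaving out single replicates gave 0 to 1, 0 to 1 and 0 calls, the 1 being the main Ankrd11 circle without Adar1-2KO replicate 3. On ONT, DESeq2 gave 1 call for Adar1-2KO against Adar2KO, the minimum of 1 read gave 1 for Adar1-2KO against wild type, and leaving out replicates gave 0 to 2, 0 and 0. Circular shares gave 0 to 1, 0 and 0 to 1 calls when replicates were left out, the 1 being an Anks1b circle without wild type replicate 3. Summed by gene on Illumina, Adar1-2KO against Adar2KO gave 1 call (Ankrd11) with DESeq2 and 0 to 1 when replicates were left out. The share of pairs unlisted on Illumina was 41.6%, and 22.3%, 18.03% and 19.4% with at least 5, 50 and 500 ONT reads, the last 2 minimums being chosen after seeing the data. Over all circles tested the calls ranged more widely, from 3 to 338 for Adar1-2KO against wild type on Illumina, where the main value was 24. With 1 wild type ONT library left, it was assumed to vary like the other groups. The difference in the share of the main circle moved by more than the replicate SD under CIRI2 counts in 3 of 21 results, to 7.77 percentage points for Ankrd12 in Adar2KO against wild type (from 61.5; 45.6 to 92.3 when replicates were left out), to 5.17 for Ank3 in the same comparison (from 30.7; 25.6 to 39.2) and to -2.85 for Ank3 in Adar1-2KO against wild type (from 18.4; 9.18 to 27.0), and the cause was not tested. None of the 264 single circle and gene results had a call to lose. Over 3771 comparisons of settings 19 gained one, and 262 values without a call, from 112 results, changed sign.

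The replicate numbers were tried as a block. Samples of the same number did not deviate together, with correlations of -0.0303 to 0.0194 on Illumina and -0.0337 to 0.0408 on ONT. Samples of different numbers gave -0.0186 to 0.0265 and -0.0478 to 0.0338. Such correlations cannot show whether the numbers pair the samples. The fit with the replicate block gave 1 call in Adar1-2KO against wild type on Illumina, the main Ankrd11 circle (log2 change -6.67, edgeR adjusted p = 0.0496), and 0 in the others.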

Other observations

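Antisense circles, which the annotation places on the strand opposite to the gene, were 46 of the 419 ONT circles of the 7 genes (10.98%, against 7.84% of all ONT circles) and 11 of the 705 Illumina circles (1.56%, against 2.72%). The most read of them on ONT were circles opposite Ank3 (33 reads) and Ank2 (27 and 18 reads), each found in 1 library and unlisted on Illumina. A further Anks1b circle, chr10:90777288-90784513, had 7 to 20 ONT reads in each of 8 libraries and was unlisted by CIRIquant and CIRI2 in every Illumina library. Circles that the annotation gave to both Anks1b and LOC118567801 numbered 23 on Illumina with 5570 reads and 18 on ONT with 1291 reads. They were counted in the sums for Anks1b.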
